A study of Cucumis melo with 18 samples.

Results

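A set of 25 melon genes was abundant in fruit at 10 days after pollination (DAP) and had few counts at 30 and 45 DAP in both lines studied. The set was defined on the counts themselves. CPM, the count of a gene divided by the total of its library and multiplied by 1e6, was averaged over the 3 libraries of each group, and a gene was taken when its mean was at least 50 CPM in both 10 DAP groups and below 1 CPM in the 4 later groups. Of 22394 genes in the table, 3683 met the first condition, 7050 met the second and 25 met both. The fall after 10 DAP is therefore how the genes were chosen, and it is given below as a description without a test. The rule did not fix which line was higher at 10 DAP, nor whether the remaining counts differed between 45 and 30 DAP, and tests were made only there.

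The 18 RNA-seq libraries came from fruits of the high-generation inbred melon (Cucumis melo) lines “B-14”, whose flesh turns orange, and “B-6”, whose flesh turns white, and they were made to find genes that differ between the lines at different stages. The groups were “1_14” and “1_6” at 10 DAP, “3_14” and “3_6” at 30 DAP and “4_14” and “4_6” at 45 DAP, when the fruit was mature, each with 3 biological replicates. Flowers were hand pollinated, for 1 fruit per plant, and the fruits were grown in a greenhouse in 1 season. Each colour is represented by 1 inbred line, so that flesh colour and any other difference between the lines cannot be told apart. The tissue is flesh according to the paper and blade according to the labels.

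A melon fruit first grows by cell division and cell expansion, while its flesh is firm and has little sugar. Growth then slows, cell walls soften, sugars accumulate and, in orange lines, carotenoids build up in the flesh. Genes that serve cell division, wall synthesis or the green tissue of a young fruit are commonly switched down as this change proceeds, and phytoene synthase (PSY), the enzyme of the first committed step of carotenoid synthesis, is a usual marker of it.

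Total counts lay between 20651703 and 22675606 per library, so that 1 CPM stood for 20.7 to 22.7 counts and a floor of 3 counts for 0.132 to 0.145 CPM. MELO3C025102.2, annotated as PSY, served as a limited check of the stage labels. The paper reports the rise of this gene from the same libraries, so the outcome was known beforehand. Its mean was 5.26, 242 and 323 CPM in “1_14”, “3_14” and “4_14”, and 31.7, 155 and 194 CPM in “1_6”, “3_6” and “4_6”. Single libraries ran from 194 to 323 CPM in “3_14” and 283 to 378 CPM in “4_14”. They ran from 146 to 161 CPM in “3_6” and 156 to 236 CPM in “4_6”. These ranges overlap within each line, so the gene sets the first stage apart but cannot check the labels of the later stages. No marker of leaf, seed or rind had an annotation among the sources used here, so the tissue label was not checked further. In bulk tissue, fewer cells of a type and less RNA per cell cannot be told apart.

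None of the 25 genes can be given a function here. Their MELO3C identifiers, like all others in the table, were not found in the RefSeq table at hand (0 matches among its 28628 genes), so positions, descriptions and sequences are not given. Genes that the paper names by identifier carry its annotation, and these had been chosen by the study on the same samples. Among the 157 such genes measured, 41 had at least 50 CPM in both 10 DAP groups, and 0 of them were among the 25. Of all 3683 genes at that level only 25 were in the set, so 0 of 41 is close to that share. By list, 1 of the 24 carotenoid genes whose identifiers were at hand, 12 of 42 porphyrin and chlorophyll genes and 9 of 41 genes listed with the transcription factors reached 50 CPM at 10 DAP in both lines. The last list also holds a chlorophyll gene, MELO3C023131.2, which was not among the 9. Each of these genes had a mean of at least 11.8 CPM in 1 or more of the later groups.

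Some annotated genes came close to the same course, and they were picked after their values were seen, as the 4 with the lowest level after 10 DAP among those 41. MELO3C015312.2, annotated as respiratory burst oxidase homolog protein B, a type of enzyme that makes superoxide at the plasma membrane, averaged 152, 1.16 and 1.38 CPM in “1_14”, “3_14” and “4_14” and 185, 0.886 and 1.91 CPM in “1_6”, “3_6” and “4_6”. MELO3C007334.2, annotated as equilibrative nucleotide transporter 3, averaged 249, 2.32 and 0.451 CPM in B-14 and 341, 2.67 and 1.46 CPM in B-6 at the same stages. MELO3C026755.2 is annotated as probable xyloglucan endotransglucosylase/hydrolase protein 5, of a family that cuts and rejoins xyloglucan in the growing cell wall. It averaged 1370 CPM in “1_14” and 622 CPM in “1_6” and at most 2.71 CPM later. MELO3C012305.2, a probable methyltransferase named CRG1, averaged 1282 CPM in “1_14” and 187 CPM in “1_6”. Later it averaged 0.722 CPM in “3_14” and 3.01 CPM in “3_6”, and 0.437 CPM in “4_14” and 2.40 CPM in “4_6”. All 4 missed the limit of 1 CPM in at least 1 later group.

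**Figure D1:**
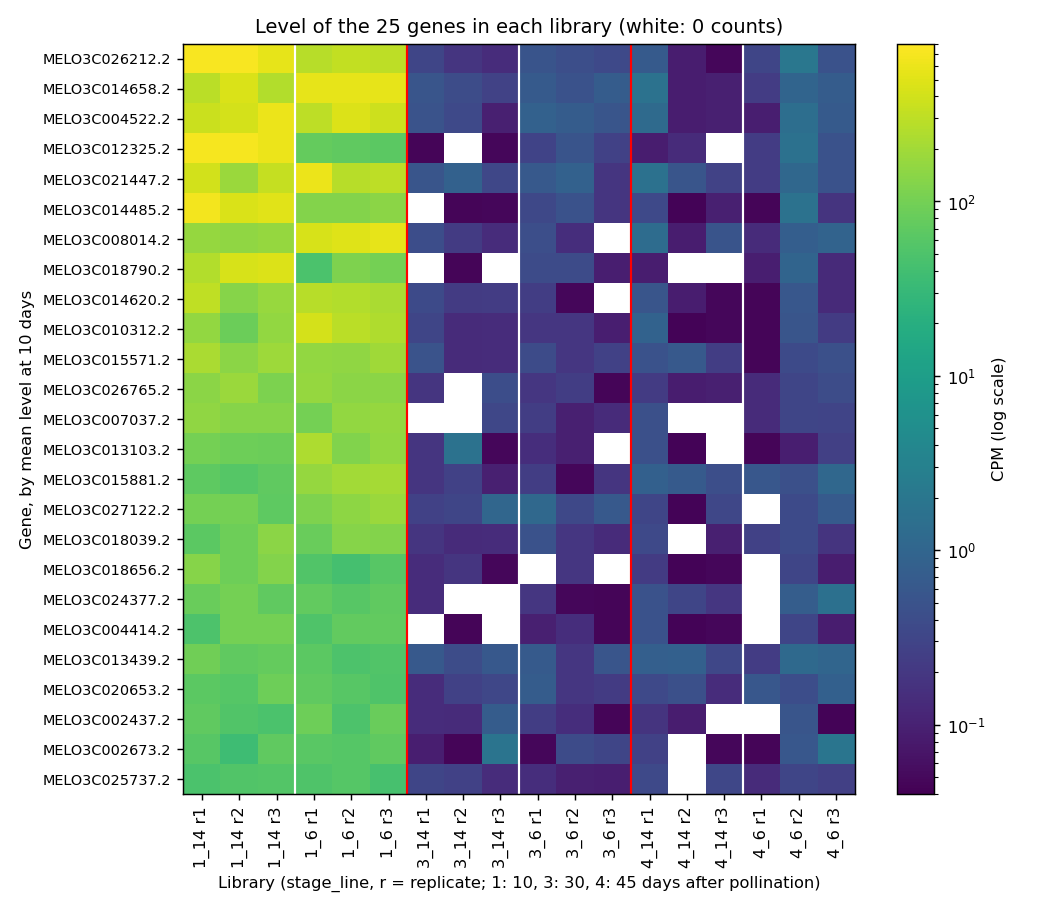
CPM of the 25 genes (rows, highest 10 DAP mean on top) in the 18 libraries (columns, by stage and line) on a log colour scale, with a library at 0 counts left white. Red lines part the stages and white lines part the lines. The 6 columns at 10 DAP hold means of 52.8 to 484 CPM per gene, and every later column holds at most 44 counts per gene.

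At 10 DAP the 25 genes together made up 0.512 to 0.549% of the counts in the “1_14” libraries and 0.450 to 0.468% in the “1_6” libraries. Their summed level was 5307 ± 185 CPM in “1_14” and 4582 ± 91.7 CPM in “1_6” (SD, n = 3 each). Single genes averaged 52.8 to 484 CPM over the 6 libraries, with a median of 141 CPM, and ranked 246 to 4452 among all 22394 genes at that stage. The counts behind these levels were 801 to 15889 per gene and library, so counting error was small there.

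After 10 DAP the same sum was 6.62 ± 0.566 CPM in “3_14” and 7.204 ± 2.19 CPM in “3_6” at 30 DAP, and 7.59 ± 6.22 CPM in “4_14” and 11.8 ± 7.43 CPM in “4_6” at 45 DAP (SD, n = 3 each). Of the 300 values of single genes in single later libraries, 31 were 0 counts, 125 were at most 3 counts and the highest was 44 counts. None of the 25 was at 0 in all 12 later libraries. Whether so few counts stand for expression in those fruits was not tested.

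The ratio of the level at 10 DAP over that at 30 DAP ran from 88.5 to 4803 in B-14, with a median of 650, and from 121 to 2604 in B-6, with a median of 601. Over 45 DAP it ran from 102 to 4857 in B-14, with a median of 539, and from 70.3 to 1313 in B-6, with a median of 424. Where all 3 libraries of a later group held at most 3 counts, the floor was used in its place, which made 5 ratios over “3_14”, 2 over “4_14”, 3 over “3_6” and 0 over “4_6” minimum values. The highest ratios, 4803 and 4857, belong to MELO3C012325.2 in B-14 and are such minimum values. A mean below the floor was kept where any library of the group held more than 3 counts. The 2604 in B-6 is such a case, from MELO3C014620.2 with 5, 1 and 0 counts in “3_6” (0.0963 CPM), and is equally uncertain.

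The 3 genes with the most counts over the 12 later libraries were MELO3C021447.2 with 167, MELO3C013439.2 with 164 and MELO3C014658.2 with 150. The 3 with the fewest were MELO3C018656.2 with 28, MELO3C004414.2 with 29 and MELO3C007037.2 with 44. MELO3C013439.2 was high later from a low start, as its 10 DAP levels were 92.4, 72.3 and 77.7 CPM in “1_14” and 66.1, 49.4 and 55.1 CPM in “1_6”. It kept 0.554 CPM in “3_14”, 0.470 CPM in “3_6”, 0.661 CPM in “4_14” and 0.809 CPM in “4_6”, and it gave the lowest of the ratios over 45 DAP in B-6. MELO3C004414.2 was at the other end, with 50.5, 102 and 100.5 CPM in “1_14”, 51.7, 74.99 and 73.1 CPM in “1_6” and a count of 1 in the 3 libraries of “3_14” together.

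The genes next to the limits show how the rule trimmed the set. On the inside of the 50 CPM limit, the lower of the 10 DAP means was 52.7 CPM for MELO3C025737.2, 52.8 CPM for MELO3C018656.2 and 56.6 CPM for MELO3C002673.2. On the outside it was 49.7 CPM for MELO3C016551.2, 45.9 CPM for MELO3C025360.2 and 45.2 CPM for MELO3C002553.2. At the 1 CPM limit, the highest later mean was 0.936 CPM for MELO3C026212.2, 0.830 CPM for MELO3C002673.2 and 0.809 CPM for MELO3C013439.2 inside. Outside it was 1.08 CPM for MELO3C003886.2, 1.24 CPM for MELO3C014359.2 and 1.27 CPM for MELO3C006560.2, so the set has no sharp edge.

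The 8 most abundant genes made up 66.7% of the summed CPM in “1_14” and 52.7% in “1_6”. By their mean over the 6 libraries of 10 DAP these were MELO3C026212.2 (484 CPM), MELO3C014658.2 (444 CPM), MELO3C004522.2 (422 CPM), MELO3C012325.2 (367 CPM), MELO3C021447.2 (350.2 CPM), MELO3C014485.2 (341 CPM), MELO3C008014.2 (328 CPM) and MELO3C018790.2 (239.8 CPM). Of these 8, 5 differed between the lines and are described with that comparison. MELO3C014658.2 had 283, 449 and 257 CPM in “1_14”, against 550.5, 562 and 561 CPM in “1_6”, with no overlap but a difference below the fold threshold. MELO3C004522.2 had 367, 425 and 599 CPM in “1_14”, against 301, 466 and 376 CPM in “1_6”. MELO3C021447.2 had 401, 180.05 and 338 CPM in “1_14”, against 604, 274 and 304 CPM in “1_6”. The libraries of the lines overlapped in these last 2 genes.

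The spread among replicates of the 25 genes was wide. Their coefficient of variation (CV, SD over mean) had a median of 20.3% in “1_14” and 14.02% in “1_6”, while that of the 3683 genes with at least 50 CPM in both groups had a median of 10.9% and 10.3% in the same groups. The widest were MELO3C021447.2 in “1_6” (CV 46.2%), MELO3C014620.2 in “1_14” (CV 45.4%) and MELO3C018039.2 in “1_14” (CV 41.3%). MELO3C014620.2 had 316, 135 and 176 CPM in “1_14”, against 273, 255 and 224 CPM in “1_6”. MELO3C018039.2 had 65.1, 88.9 and 145 CPM in “1_14”, against 83.8, 134 and 128 CPM in “1_6”. In neither gene were the lines apart. No 10 DAP library was high for the whole set, since the library with the most highest values, “1_14” replicate 1, was the highest of its group for 11 of the 25 genes.

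When “1_14” was compared with “1_6”, 9 of the 25 genes were differentially expressed (DEGs), 5 of them upregulated and 4 downregulated, at the study's threshold, which takes a p-value up to 0.05 together with a change of 2-fold or more in either direction (edgeR quasi-likelihood F test on all 16531 genes that passed the count filter). Among all genes tested 27.2% were DEGs, and among the 3683 genes with at least 50 CPM in both groups 17.1% were. The share of the set, 9 of 25, was higher, but it fell to 7 of 25 in some fits with 1 library left out. MELO3C013103.2, MELO3C018656.2 and MELO3C026212.2 lay at the 2-fold limit. Whether the set differs from other genes in this share was not tested. By direction, 12.8% of all genes tested were upregulated and 14.4% downregulated, and 6.14% and 10.9% of the abundant ones. The same 9 genes passed with the Benjamini-Hochberg adjusted p-value, with which 26.3% of all genes and 17% of the abundant ones were DEGs. The set leaned to neither line, with a higher mean in “1_14” for 12 genes and in “1_6” for 13. The median log2 fold change was -0.15 for the 25 genes, -0.05 for the abundant genes and 0.01 for all genes tested, and its median size was 0.42, 0.40 and 0.55.

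The largest difference was that of MELO3C012325.2, which had 701, 699.6 and 590.0 CPM in “1_14”, against 78.3, 70.1 and 65.5 CPM in “1_6”. All 3 libraries of “1_14” lay far above those of “1_6”, and edgeR's log2 fold change was 3.13 (SE 0.15, adjusted p = 1.59e-05). MELO3C018790.2 had 253, 434 and 483 CPM in “1_14”, against 48.7, 117 and 103 CPM in “1_6”. It spread widely within both lines yet did not overlap between them, with a log2 fold change of 2.001 (SE 0.39, edgeR adjusted p = 0.00367). MELO3C014485.2 had 669, 461 and 517 CPM in “1_14”, against 125, 129.8 and 145 CPM in “1_6”. Its log2 fold change was 1.94 (SE 0.20, edgeR adjusted p = 0.000165). These 3 were the genes more than 4-fold higher in “1_14” by the ratio of the means, at 9.30, 4.36 and 4.12.

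A smaller rise was found for MELO3C026212.2, the most abundant of the set, with 713, 736 and 563 CPM in “1_14”, against 271, 319.8 and 299.8 CPM in “1_6”. Its log2 fold change was 1.08 (SE 0.18, edgeR adjusted p = 0.00171). MELO3C018656.2, among the less abundant of the set, had 132, 90.6 and 127 CPM in “1_14”, against 54.3, 43.2 and 61.1 CPM in “1_6”. Its log2 fold change was 1.04 (SE 0.20, edgeR adjusted p = 0.00342), and like MELO3C026212.2 it lay close to the 2-fold limit.

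The 4 downregulated genes were MELO3C008014.2, MELO3C015881.2, MELO3C010312.2 and MELO3C013103.2. MELO3C008014.2 had 169, 155 and 166 CPM in “1_14”, against 444, 488 and 546 CPM in “1_6”, a log2 fold change of -1.70 (SE 0.17, edgeR adjusted p = 0.000151). Its CV in “1_14”, 4.30%, was the lowest of the set in that group. MELO3C015881.2 had 67.9, 59.0 and 71.5 CPM in “1_14”, against 168, 204 and 213 CPM in “1_6”, a log2 fold change of -1.67 (SE 0.17, edgeR adjusted p = 0.000188). These 2 genes were about equally lower in B-14, with ratios of the means of 0.331 and 0.339.

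MELO3C010312.2 had 159.6, 85.8 and 161 CPM in “1_14”, against 417, 282 and 244 CPM in “1_6”. Its log2 fold change was -1.29 (SE 0.27, edgeR adjusted p = 0.0050009). MELO3C013103.2 had 101, 88.6 and 87.6 CPM in “1_14”, against 239, 125 and 164 CPM in “1_6”. Its log2 fold change, -1.001 (SE 0.20, edgeR adjusted p = 0.00387), sat on the threshold.

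**Figure D2:**
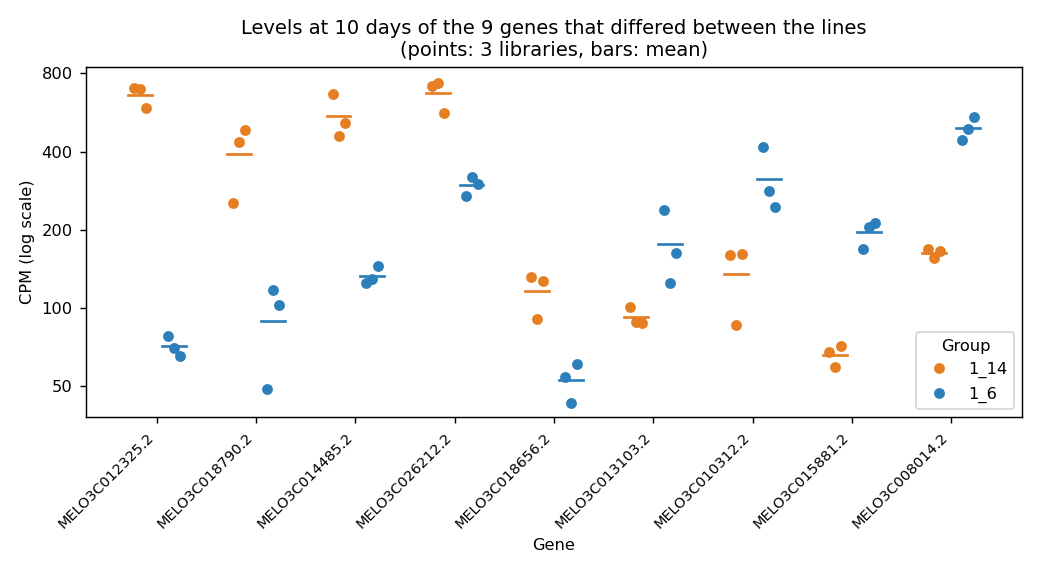
Levels (CPM, log axis) at 10 DAP of the 9 genes that were DEGs in “1_14” versus “1_6”, with a point for each of 3 libraries and a bar at the mean, “1_14” left of “1_6”. In none of the 9 genes do the points of the 2 lines overlap, and MELO3C012325.2 shows the widest gap.

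In all, 12 of the 25 genes had no overlap between the lines at 10 DAP, 6 with “1_14” higher and 6 with “1_14” lower. This is a smaller share than the 58.4% of all genes tested and the 60.4% of the abundant genes that did not overlap. The 3 such genes that were not DEGs were MELO3C013439.2 (log2 fold change 0.42, SE 0.14), MELO3C014658.2 (-0.86, SE 0.22) and MELO3C027122.2 (-0.85, SE 0.23), which missed the fold threshold. MELO3C027122.2 had 99.8, 100.9 and 68.8 CPM in “1_14”, against 120.0, 149 and 179 CPM in “1_6”.

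The genes with the smallest log2 fold change in edgeR, after TMM scaling, were MELO3C015571.2, MELO3C025737.2 and MELO3C020653.2. MELO3C015571.2 had 228, 144 and 189 CPM in “1_14”, against 162, 157 and 191 CPM in “1_6”, a log2 fold change of 0.04 (SE 0.20). MELO3C025737.2 had 48.3, 55.0 and 55.5 CPM in “1_14”, against 53.1, 59.8 and 45.0 CPM in “1_6”, a log2 fold change of -0.08 (SE 0.13). MELO3C020653.2 had 66.8, 59.9 and 88.8 CPM in “1_14”, against 70.3, 61.5 and 53.2 CPM in “1_6”, a log2 fold change of 0.14 (SE 0.16). In these 3 the libraries of the lines were interspersed.

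The rest of the set did not pass the test either. MELO3C026765.2 averaged 145 CPM in “1_14” and 151 CPM in “1_6”, and MELO3C007037.2 averaged 139 CPM in “1_14” and 144 CPM in “1_6”. MELO3C024377.2 averaged 85.3 CPM in “1_14” and 68.9 CPM in “1_6”, MELO3C002437.2 averaged 58.0 CPM in “1_14” and 75.1 CPM in “1_6”, and MELO3C002673.2 averaged 56.6 CPM in “1_14” and 64.2 CPM in “1_6”. Counting the DEGs, the log2 fold changes of the set ran over a range of -1.70 to 3.13.

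**Figure D3:**
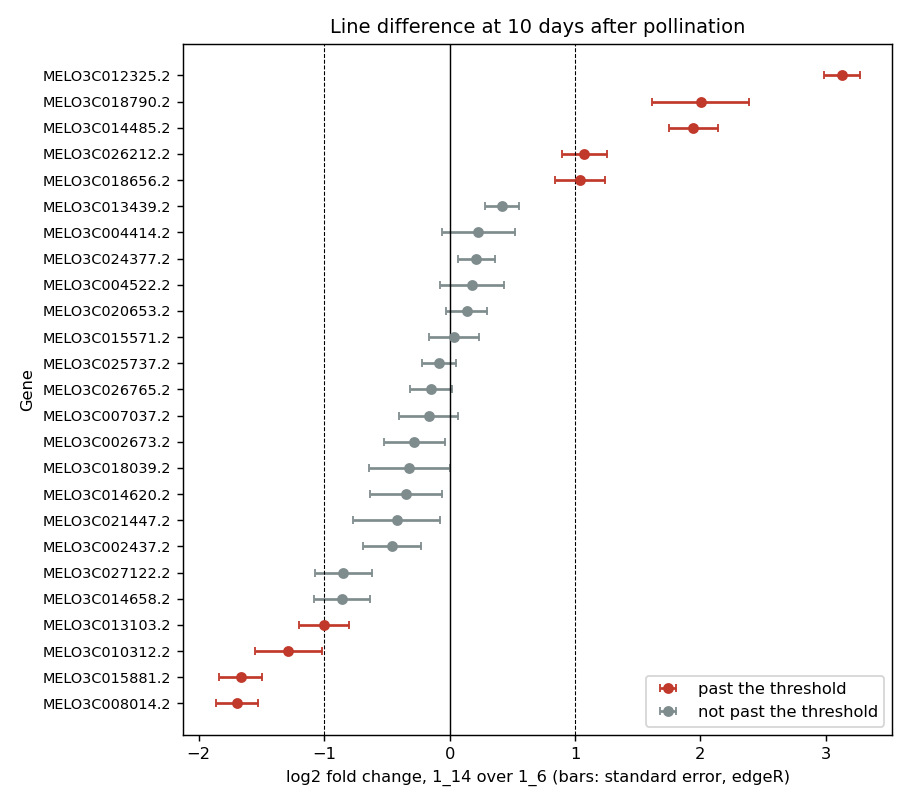
Log2 fold change in “1_14” over “1_6” of each of the 25 genes from edgeR, with the standard error as a bar and dashed lines at a fold change of 2 in either direction. The 5 red points on the right run up to 3.13, the 4 red points on the left run down to -1.70, and the 16 grey points did not pass the threshold.

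Leaving out 1 library at a time gave 7 to 9 DEGs among the 25 genes. MELO3C012325.2, MELO3C018790.2, MELO3C014485.2, MELO3C008014.2, MELO3C015881.2 and MELO3C010312.2 were called in each of these 6 fits. MELO3C026212.2 fell to a log2 fold change of 0.96 without “1_6” replicate 1. MELO3C018656.2 was called in 2 of the 6, with 0.94 and 0.97 without “1_14” replicates 1 and 3 and 0.99 and 0.92 without “1_6” replicates 1 and 2. MELO3C013103.2 was called in 2 of the 6, with -0.96 and -0.97 without “1_14” replicates 2 and 3 and -0.80 and -0.99 without “1_6” replicates 1 and 3, and in 4 of the 8 other settings. MELO3C014658.2 reached -1.13 without “1_14” replicate 2 and MELO3C027122.2 reached -1.03 without “1_6” replicate 1, and both were called there.

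The counts left at 45 and 30 DAP were few, and they were unequal among replicates. Summed over the 25 genes they were 331, 100 and 75 counts in “4_14”, against 135, 141 and 155 counts in “3_14”, and 81, 402 and 306 counts in “4_6”, against 198, 143 and 114 counts in “3_6”. Within “4_14”, replicate 1 was the highest library for 20 of the 25 genes, and within “4_6”, replicate 2 was the highest for 16 and replicate 1 the lowest for 22. These libraries stood apart for most of the set. In values added after the data were seen, the summed level in “4_14” was 4.01 CPM without replicate 1, against 7.59 CPM with it. That in “4_6” was 15.9 CPM without replicate 1 and 8.60 CPM without replicate 2, against 11.8 CPM with all 3. The median ratio of 10 over 45 DAP was 722 in B-14 without “4_14” replicate 1, and in B-6 it was 292 without “4_6” replicate 1 and 567 without “4_6” replicate 2. Without “4_6” replicate 1 the rule would have taken 19 genes, and without any other single library 24 to 27.

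In “4_14” versus “3_14”, 3 of the 25 had enough counts to be tested and 0 were DEGs, with 20% of the 15600 genes tested called. In “4_6” versus “3_6”, 8 were tested and 0 were DEGs, with 27.8% of the 15517 genes tested called. Among the members tested, 0 had an unadjusted p of at most 0.05 in edgeR, and DESeq2 called 0 as well. The 3 genes tested in B-14 were MELO3C013439.2, MELO3C015571.2 and MELO3C021447.2, with log2 fold changes of 0.25 (SE 0.44), 0.77 (SE 0.65) and 0.48 (SE 0.69). In B-6 the median of the 8 was 0.41, against 0.02 over all genes tested, and they ran over a range of -1.03 for MELO3C027122.2 (SE 0.86) to 1.07 for MELO3C026212.2 (SE 0.71). With standard errors of 0.44 to 0.86 on the log2 scale, which hold both counting error and the spread among replicates, a 2-fold change in a single gene could not be told from no change.

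MELO3C015881.2 lay below the count filter and is described after its values were seen. It had 19, 15 and 9 counts in “4_14”, against 4, 6 and 2 counts in “3_14”, and 13, 10 and 25 counts in “4_6”, against 5, 1 and 4 counts in “3_6”. Its libraries did not overlap between the stages in either line. When every gene with at least 1 count was kept, edgeR's log2 fold change was 1.78 (SE 0.57, adjusted p = 0.0404) in B-14 and 2.16 (SE 0.65, adjusted p = 0.0242) in B-6. With the replicate block as well, added after the data were seen, it was 1.80 in B-14 (SE 0.67, edgeR adjusted p = 0.0727) and 2.19 in B-6 (SE 0.66, adjusted p = 0.0383), both past the threshold of the unadjusted p-value. Among the other settings it was tested in 6 for B-14 and 7 for B-6 and called in each, and in the others it was below the count filter and was not tested. In the fits with a library left out, only its counts in “4_14” and “4_6” were high enough to pass this filter. Being tested there thus depended on the higher stage, so those calls are no separate support for a rise.

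MELO3C024377.2, also seen first in the values, had 11, 7 and 4 counts in “4_14”, against 3, 0 and 0 counts in “3_14”. In B-6 it had 0, 16 and 35 counts in “4_6”, against 4, 1 and 1 counts in “3_6”, where the stages overlapped through “4_6” replicate 1. With every gene kept, its log2 fold change was 2.70 (SE 1.07, edgeR adjusted p = 0.0834) in B-14 and 2.93 (SE 1.22, adjusted p = 0.0822) in B-6. With the block as well it was 2.88 (SE 1.16, edgeR adjusted p = 0.0944) in B-14, and 2.48 (SE 1.38, adjusted p = 0.210) in B-6, where it was no longer called. Over the set, all 3 libraries of 45 DAP lay above those of 30 DAP for 2 of 25 genes in B-14 and 1 of 25 in B-6, and below them for 0 in either line. Of all genes tested, 31.9% in B-14 and 33.3% in B-6 lay wholly above, and 29.9% in B-14 and 34.5% in B-6 wholly below. The mean at 45 DAP was the higher one for 16 of the 25 genes in B-14, against 50.3% of all genes tested, and for 24 of the 25 in B-6, against 50.9%. Neither tally held without 1 library, being 9 of 25 in B-14 without “4_14” replicate 1 and 10 of 25 in B-6 without “4_6” replicate 2. All 25 genes are set here against genes that passed the count filter, while only 3 of the 25 in B-14 and 8 in B-6 did. Genes with as few counts as the set were not tallied, so the shares are no like comparison.

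Single libraries moved the calls of 45 versus 30 DAP. In B-14, 2 of 5 tested were called without “3_14” replicate 1, with 3316 of 15882 of all genes called. For “3_14” replicates 2 and 3 it was 1 of 7 each, with 3156 of 15830 and 3176 of 15843. For “4_14” replicates 2 and 3 it was 1 of 6 each, with 3335 of 15877 and 3080 of 15856. It was 0 of 3 without “4_14” replicate 1, with 3190 of 15837. In B-6, 6 of 13 tested were called without “4_6” replicate 1, with 4823 of 15807 of all genes called. It was 3 of 13 without “3_6” replicate 1, with 4231 of 15761. For “3_6” replicates 2 and 3 it was 1 of 12 and 1 of 13, with 4362 and 4338 of 15771. For “4_6” replicates 2 and 3 it was 1 of 9 and 0 of 9, with 4330 of 15736 and 4174 of 15741. With a library left out, a gene could pass the count filter through the counts of the higher stage alone. These calls are thus no separate support for a change.

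For most of the set the few counts left after 10 DAP did not part the lines, which overlapped for 19 of 25 genes at 30 DAP and 23 of 25 at 45 DAP. At 30 DAP the libraries of the lines did not overlap for 6 of the 25 genes, all lower in “3_14”. Of all genes with a count at that stage 14.1% were lower in this way, and of those with means below 1 CPM in both lines 6.79% were. At 45 DAP the lines did not overlap for 2 of the 25, both lower in “4_14”. Of all genes with a count 12.8% were lower in this way, and of those below 1 CPM 4.65% were. These shares of both stages count genes lower in B-14 only, a direction seen first in the 25 genes. Shares in either direction were not counted, and whether the set differs from other genes here was not tested. In MELO3C004414.2 at 30 DAP and MELO3C018790.2 at 45 DAP the nearest libraries held the same count, 1 and 1 and 2 and 2, and were apart in CPM through library size alone. MELO3C012325.2, 9.30 times as high in “1_14” as in “1_6”, had 1, 0 and 1 counts in “3_14”, against 6, 11 and 6 counts in “3_6”. At 45 DAP it had 2, 3 and 0 counts in “4_14”, against 5, 35 and 11 counts in “4_6”. The line in which this gene was high at 10 DAP was thus the one with fewer counts later, in every library of both stages.

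The genes with the 4 highest and the 4 lowest ratios of “1_14” over “1_6” were then summed as groups. The first were MELO3C012325.2, MELO3C018790.2, MELO3C014485.2 and MELO3C026212.2, with ratios of 9.30 to 2.26, and the second were MELO3C013103.2, MELO3C010312.2, MELO3C015881.2 and MELO3C008014.2, with ratios of 0.526 to 0.331. The first group held 8, 6 and 5 counts in “3_14”, against 32, 38 and 20 counts in “3_6”. It held 27, 6 and 3 counts in “4_14”, against 15, 137 and 29 counts in “4_6”. The lines did not overlap at 30 DAP and did overlap at 45 DAP.

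The second group held 24, 51 and 9 counts in “3_14”, against 21, 10 and 6 counts in “3_6”. At 45 DAP it held 79, 19 and 21 counts in “4_14”, against 18, 41 and 57 counts in “4_6”. These overlapped at both stages, and 37 of the 51 counts in “3_14” replicate 2 came from MELO3C013103.2.

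Across the 25 genes, the counts of a later library were closer to the 10 DAP levels of the other line than to those of its own in 9 of the 12 later libraries, which were all 6 of B-14 and 3 of the 6 of B-6. The 4 with the highest rho, picked after the values were seen, were as follows. Spearman's rho of “4_14” replicate 1 was 0.184 with the mean of “1_14” and 0.67 with that of “1_6”. That of “4_6” replicate 2 was 0.571 with “1_14” and 0.290 with “1_6”. That of “3_14” replicate 1 was 0.134 with “1_14” and 0.528 with “1_6”, and that of “3_6” replicate 2 was 0.595 with “1_14” and 0.218 with “1_6”. In the other 8 libraries no rho was above 0.39, which is weak in counts this sparse. These are descriptions over 25 genes chosen by the rule, with counts of 0 to 44, and the genes of a library share its depth. What moved with them, whether in the tissue or in the making of the libraries, was not tested.

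**Figure D4:**
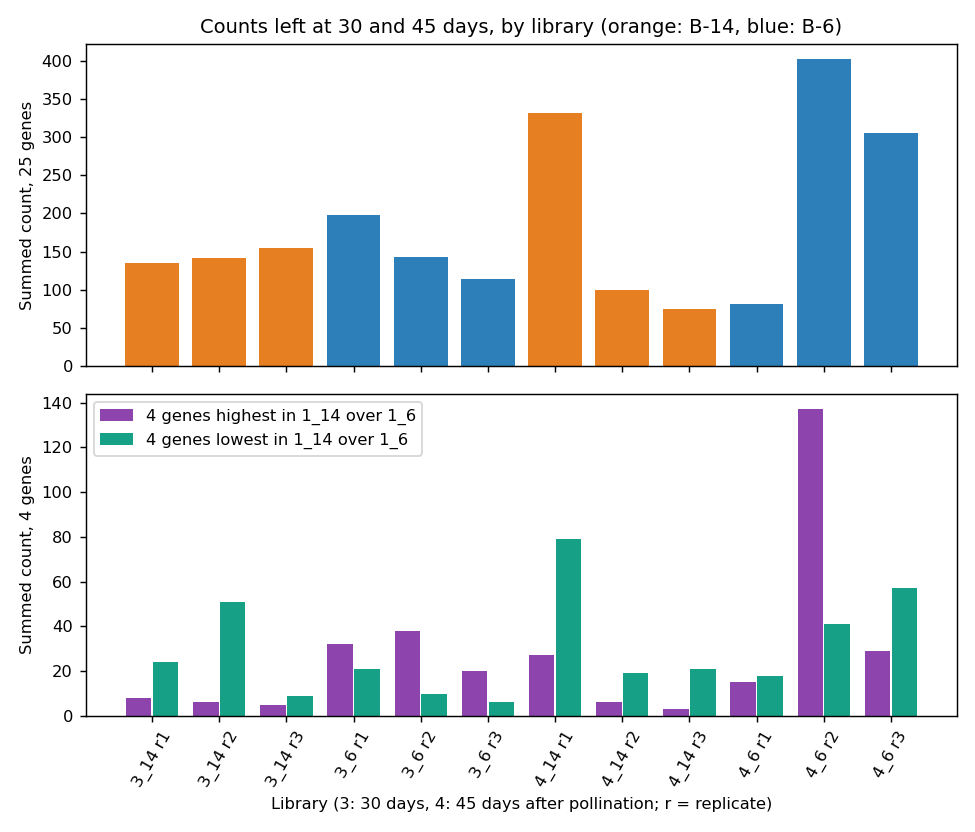
Counts left in each library of 30 and 45 DAP, summed over the 25 genes (upper panel, B-14 orange and B-6 blue) and over the 4 genes highest and the 4 genes lowest in “1_14” over “1_6” (lower panel, purple and green). The upper panel is highest in “4_6” replicate 2, with 402 counts, and in the lower panel the purple bars of “3_14”, 8, 6 and 5 counts, are below those of “3_6”, 32, 38 and 20 counts.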

How the data were processed

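Reads were trimmed (Trimmomatic) and mapped to the melon genome (HISAT2) by the authors, and the deposited table gives whole numbers per gene and library, used here as counts. Program versions, genome build, counting program and use of strand are not given in the sources used here. The table holds 22394 genes and 18 libraries. Between replicates, 29.0 to 65.7% of genes differed beyond binomial sampling, so no library was a copy.

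The 25 genes, the lists and the tests were chosen with earlier results of these data known. “1_14” was compared with “1_6”, “4_14” with “3_14” and “4_6” with “3_6”, each in its 6 libraries, by edgeR 4.0.16 in R 4.3.3 (filterByExpr, TMM, quasi-likelihood F test, Benjamini-Hochberg adjustment over all genes tested). The fits were tested on simulated data. The alternatives were DESeq2 1.42.0, RLE factors, library size alone, every gene with at least 1 count, a filter of at least 10 counts per library, 1 fit over all 18 libraries, replicate as a block, the adjusted p-value as threshold, each library left out, and other limits for the rule. Same-numbered libraries deviated together in “4_14” and “3_14” (r = 0.114, 0.283 and 0.394 across 16567 genes, all above 0.1). In the other comparisons r ran from -0.104 to 0.249. The labels tie the numbers to no shared plant or day, so whether the libraries are paired is not known. Values are from the fits without the block unless it is named. With the block, 3166 of 15600 genes were called in “4_14” versus “3_14” in place of 3120.

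Named were the 8 most abundant genes, the DEGs without overlap, the 3 least different, the 3 with most and with fewest later counts, the 3 with the largest CV, and the 3 nearest to each limit.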

Additional observations from a re-analysis of the deposited data

Results flagged for a closer look

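In 4 genes every “1_14” library lay above every “1_6” library at 10 DAP, while at a later stage every B-14 library lay below every B-6 library in CPM, for MELO3C018790.2 at 45 DAP only through library size. This difference between the stages was not tested. The share of all genes that turn in this way was not counted, so the 4 genes do not show a trait of the set. The ratio of the mean CPM in B-14 over B-6 is given with an exact binomial 95% interval of the summed counts, which covers counting error only. It pools the 3 libraries of a group and leaves out their spread. The genes were picked for this lack of overlap in the same counts, so an interval below 1 is no separate support. For MELO3C012325.2 it was 0.0850 (0.00969 to 0.343, 2 against 23 counts) at 30 DAP and 0.0967 (0.0308 to 0.246, 5 against 51 counts) at 45 DAP. For MELO3C018790.2 it was 0.0524 (0.00130 to 0.343, 1 against 18 counts) at 30 DAP and 0.0756 (0.00892 to 0.310, 2 against 26 counts) at 45 DAP. In “4_6”, replicate 2 alone held 35 of the 51 counts of MELO3C012325.2 and 21 of the 26 of MELO3C018790.2. For MELO3C014485.2 the ratio was 0.0919 (0.0106 to 0.380, 2 against 21 counts) at 30 DAP. For MELO3C026212.2 it was 0.485 (0.237 to 0.957, 14 against 28 counts) at 30 DAP, an interval that comes close to 1.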

How the results depend on the processing

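The number of DEGs among the 25 genes in “1_14” versus “1_6” stayed between 7 and 9 over all 14 alternatives. With the replicate number as a block it was 8, without MELO3C013103.2 (log2 fold change -0.97), and in “4_14” versus “3_14” and “4_6” versus “3_6” the block gave 0, as before. In “4_14” versus “3_14” 2 genes were called with every gene kept and 1 with all 18 libraries in 1 fit. In “4_6” versus “3_6” 2 were called in each of these settings, in which all 25 were tested. Of all genes, 3738 of 20502 and 3620 of 17437 were called in the first comparison. In the second, 4959 of 20361 and 4787 of 17437 were. With every gene kept and the replicate block together, added after the data were seen, 2 were called in B-14 and 1 in B-6. Of all genes, 3495 of 20502 and 4622 of 20361 were called there. Leaving out libraries gave 0 to 2 with 3 to 7 tested in the first comparison and 0 to 6 with 9 to 13 tested in the second. In these fits 3080 of 15856 to 3335 of 15877 of all genes were called in the first. In the second, 4174 of 15741 to 4823 of 15807 were. With at least 10 counts in every library no gene of the set could be tested in these comparisons. Among the 25 log2 fold changes in “1_14” versus “1_6”, 5 changed sign in some setting. MELO3C025737.2 had a log2 fold change of 0.0080 with library size alone, and without single libraries the ranges were -0.142 to 0.0339 for it, -0.0521 to 0.358 for MELO3C004522.2, -0.415 to 0.0116 for MELO3C007037.2, -0.132 to 0.201 for MELO3C015571.2 and -0.0493 to 0.260 for MELO3C020653.2. The size of the set depended on its limits. It was 60 with 25 CPM and 11 with 100 CPM as the lower limit, 11 with 0.5 CPM and 47 with 2 CPM as the upper one, 8 when every library had to meet both, 28 with TMM-scaled CPM (all 25 among them) and 19 to 27 with single libraries left out.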

Other observations

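Outside the set, 8 genes had at least 500 counts in 1 library of 10 DAP and at most 10 in each of the other 5, and that library was “1_14” replicate 2 for all 8. They were picked after their values were seen. The 2 with the highest counts were MELO3C022824.2, with 2125 counts there, and MELO3C028900.2, with 1687. In the 12 later libraries MELO3C022824.2 had 2 counts in “3_6” replicate 3, 2 in “4_6” replicate 2 and 0 in the others. MELO3C028900.2 had 1 count in “3_6” replicate 2, 3 in “4_6” replicate 2 and 0 in the others.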
